A study of Mus musculus with 8 samples.

Results

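Transcripts of 10 heat shock chaperone genes were measured in Ly6Chigh monocytes, the inflammatory subset also called classical, after sorting from mouse spleen. The genes were Hspa1a, Hspa1b, Hspa8, Hsp90aa1, Hsp90ab1, Hsph1, Dnajb1, Hspd1, Hspe1 and Hspa5. They were taken from the count table by gene symbol, 10 of 56748 listed genes, and all 10 were among the 11222 genes that passed the filter on low counts. The tested animals were Olfr2 knockouts (KO, 4 libraries), which lack the olfactory receptor gene Olfr2, and the controls were wild type (WT, 4 libraries). Both genotypes had undergone aneurysm induction and were sampled at day 7, so that no library came from an animal without an aneurysm procedure. Strain, age and the way the aneurysm was induced are not stated in the labels. Replicates 3 and 4 of each genotype carry numbers in the 1700 range in the table and replicates 1 and 2 numbers in the 1600 range. These are called the 1700 and the 1600 series below, and the labels do not say what the numbers mean.

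Chaperones bind unfolded proteins and use ATP to help them fold. The HSP70 proteins work with J-domain partners such as Dnajb1 and with nucleotide exchange factors such as Hsph1, and hand clients on to the HSP90 proteins, while Hspd1 and Hspe1 form the folding chamber of mitochondria and Hspa5 serves the endoplasmic reticulum. Under heat or other protein damage the transcription factor HSF1 induces the cytosolic genes through heat shock elements, and misfolding in the endoplasmic reticulum induces Hspa5 through a separate element. Monocytes and macrophages are known to induce HSP70 under heat and oxidative stress.

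Total counts were 17258427 to 21728794 in KO libraries and 16111725 to 19048245 in WT libraries. Olfr2 had 0 counts in all 8 libraries, which allows up to 0.138 to 0.186 CPM (reads of a gene relative to the library total), for counting error only. It therefore gave no check of the genotypes. The 8 markers of classical monocytes summed to 115000 to 130300 CPM in KO libraries and 113700 to 122500 CPM in WT libraries. Most of that sum was Lyz2, from 10.25% of all counts in WT 1 to 11.89% in KO 4. The sum therefore says little about the other markers. Among them, Ccr2 had 1292 to 2260 CPM in KO and 1049 to 1738 CPM in WT libraries. Ly6c2 varied less, with 4727 to 6378 CPM in KO and 4058 to 4889 CPM in WT libraries. KO 1 and KO 2 stood apart from the other libraries in 9 neutrophil genes, which summed to 2092 and 3076 CPM there, against 570 and 755 CPM in the other KO libraries and 255 to 598 CPM in WT libraries. Whether each library came from its own animal is not stated, and the p-values below therefore reflect the spread among libraries.

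RefSeq promoter windows on GRCm38.p6, from 250 bases before to 50 bases after the annotated start of transcription, were at hand for 7 of the 10 genes, in 10 windows. Hspa8, Hsp90aa1 and Hsp90ab1 had none. The windows below are those of the inducible HSP70 pair, the exchange factor Hsph1, Hspe1 of the mitochondrial pair, and Hspa5. Capitals mark the core of a heat shock element, GAANNTTC or TTCNNGAA, and in Hspa5 the endoplasmic reticulum stress element, CCAAT followed after 9 bases of any kind by CCACG. Each core is its own reverse complement, so that a match counts on both strands, and the cores can overlap each other. The Hspa1a window is chr17:34972107-34972406 and that of Hspa1b chr17:34959189-34959488, both on the minus strand. The first Hsph1 window is chr5:149636266-149636565 on the minus strand, the Hspe1 window chr1:55087898-55088197 on the plus strand and the Hspa5 window chr2:34771840-34772139 on the plus strand.
Hspa1a: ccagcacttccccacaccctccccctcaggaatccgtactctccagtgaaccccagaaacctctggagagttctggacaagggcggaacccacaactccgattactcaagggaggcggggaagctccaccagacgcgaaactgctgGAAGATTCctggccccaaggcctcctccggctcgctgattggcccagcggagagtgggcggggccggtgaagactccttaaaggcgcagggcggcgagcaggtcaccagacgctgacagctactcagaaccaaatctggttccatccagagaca
Hspa1b: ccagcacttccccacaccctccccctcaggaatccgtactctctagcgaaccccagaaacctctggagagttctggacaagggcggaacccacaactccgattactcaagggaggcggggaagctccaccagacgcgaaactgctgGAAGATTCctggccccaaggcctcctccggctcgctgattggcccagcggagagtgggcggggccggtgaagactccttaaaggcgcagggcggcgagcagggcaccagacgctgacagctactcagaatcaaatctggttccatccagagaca
Hsph1: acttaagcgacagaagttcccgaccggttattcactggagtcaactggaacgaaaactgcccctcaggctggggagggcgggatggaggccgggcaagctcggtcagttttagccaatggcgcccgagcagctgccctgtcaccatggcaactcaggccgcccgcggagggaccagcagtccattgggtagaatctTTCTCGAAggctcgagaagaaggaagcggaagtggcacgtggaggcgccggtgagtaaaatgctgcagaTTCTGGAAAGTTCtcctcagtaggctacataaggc
Hspe1: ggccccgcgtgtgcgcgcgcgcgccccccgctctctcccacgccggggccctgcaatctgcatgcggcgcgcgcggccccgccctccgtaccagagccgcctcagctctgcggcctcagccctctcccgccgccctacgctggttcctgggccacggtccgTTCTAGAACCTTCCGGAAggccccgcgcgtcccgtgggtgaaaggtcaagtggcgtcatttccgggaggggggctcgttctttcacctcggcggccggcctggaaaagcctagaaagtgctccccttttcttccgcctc
Hspa5: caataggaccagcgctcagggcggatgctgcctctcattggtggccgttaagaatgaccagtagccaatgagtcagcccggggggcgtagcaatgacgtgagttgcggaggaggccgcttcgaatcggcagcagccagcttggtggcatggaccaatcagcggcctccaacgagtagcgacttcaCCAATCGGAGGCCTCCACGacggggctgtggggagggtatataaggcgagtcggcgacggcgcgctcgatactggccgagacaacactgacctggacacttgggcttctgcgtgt

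The Hspa1a and Hspa1b windows differed at 4 of 300 bases (98.7% identity): C44T, T47C, T249G and C276T, with the Hspa1a base first and positions counted from 1 at the 5′ end of the window. None of the 4 lies in the heat shock element core, which both genes carry once, 104 to 97 bases before the start. Hsph1 held 3 cores, of which the pair at 15 to 27 bases after the start overlap in the run TTCTGGAAAGTTC. Hspd1 and Hspe1 are divergent neighbours, and the Hspe1 window and 1 of 2 Hspd1 windows, on opposite strands, share 1 run of 3 overlapping cores, TTCTAGAACCTTCCGGAA in the direction of Hspe1. The other Hspd1 window, chr1:55088194-55088493, whose start of transcription is the one annotated for the gene at 55088243, held no core. Neither of the 2 Dnajb1 windows held a match to these letters. At least 1 core occurred in 15.1% of 32851 mouse promoter windows of the same length, and 2 or more cores in 1.96%. The Hspa5 window held 1 endoplasmic reticulum stress element at 65 to 47 bases before the start, a run of letters found in 0.119% of the windows. These matches describe the sequence and are not evidence of binding.

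**Figure D1:**
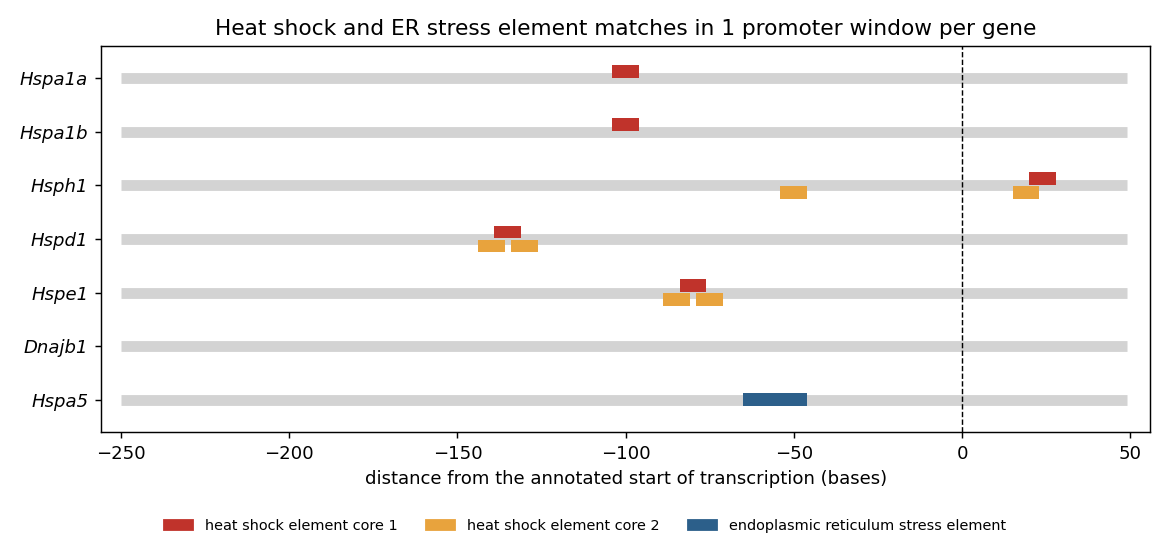
Positions of motif matches in 1 promoter window each of 7 chaperone genes (grey bars), with the distance from the annotated start of transcription in bases on the horizontal axis. Hsph1, Hspd1 and Hspe1 each hold 3 heat shock element cores (the other Hspd1 window, not drawn, holds 0), Hspa1a and Hspa1b hold 1 at the same distance, Dnajb1 holds 0 and Hspa5 holds 1 endoplasmic reticulum stress element.

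The 10 transcripts differed widely in abundance. To compare genes, CPM scaled by TMM factors was divided by transcript length, giving CPM per kb. Hspa8, the constitutive cytosolic HSP70, was by far the highest at 1126 ± 120 CPM per kb in KO and 816 ± 258 CPM per kb in WT libraries (SD, n = 4 each), rank 82 and rank 118 of 10969 tested genes with a length. In KO libraries Hspa8 alone made up 71.5% to 73.2% of the summed level per kb of the 10 genes. In WT libraries its share was 63.3% to 70.3%. The ranges did not overlap, but KO 3 at 71.5% and WT 1 at 70.3% lay close. Among single genes, 5.35% of all tested had all 4 KO libraries above all 4 WT libraries. The background among such shares was not computed, and the difference was not tested. Hspe1, the small mitochondrial co-chaperonin, followed at 165 ± 12.3 CPM per kb in KO and 160 ± 22.9 CPM per kb in WT libraries. Then came Hspa5 with 110 ± 17.0 CPM per kb in KO and 72.8 ± 31.9 CPM per kb in WT libraries, and the constitutive HSP90 gene Hsp90ab1 with 69.5 ± 15.2 and 60.0 ± 22.3 CPM per kb in the same order of genotypes. In KO libraries each of these 4 genes lay above the next in every library. In WT libraries the ranges of Hspa5 and Hsp90ab1 overlapped. So did those of Hsp90ab1, at 32.4 CPM per kb in WT 3, and the next gene Dnajb1, at 45.2 CPM per kb in WT 1.

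Dnajb1, the inducible HSP90 gene Hsp90aa1 and the mitochondrial chaperonin Hspd1 formed a middle group with 33.4, 24.9 and 23.0 CPM per kb in KO and 35.3, 19.5 and 19.1 CPM per kb in WT libraries. Neighbours within that group overlapped in both genotypes. Hsph1, Hspa1b and Hspa1a were scarce, with 2.52, 1.26 and 0.813 CPM per kb in KO and 2.20, 2.85 and 1.94 CPM per kb in WT libraries, and their ranges overlapped. Among these scarce genes Hsph1 had the highest mean in KO libraries, and Hspa1b in WT libraries.

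**Figure D2:**
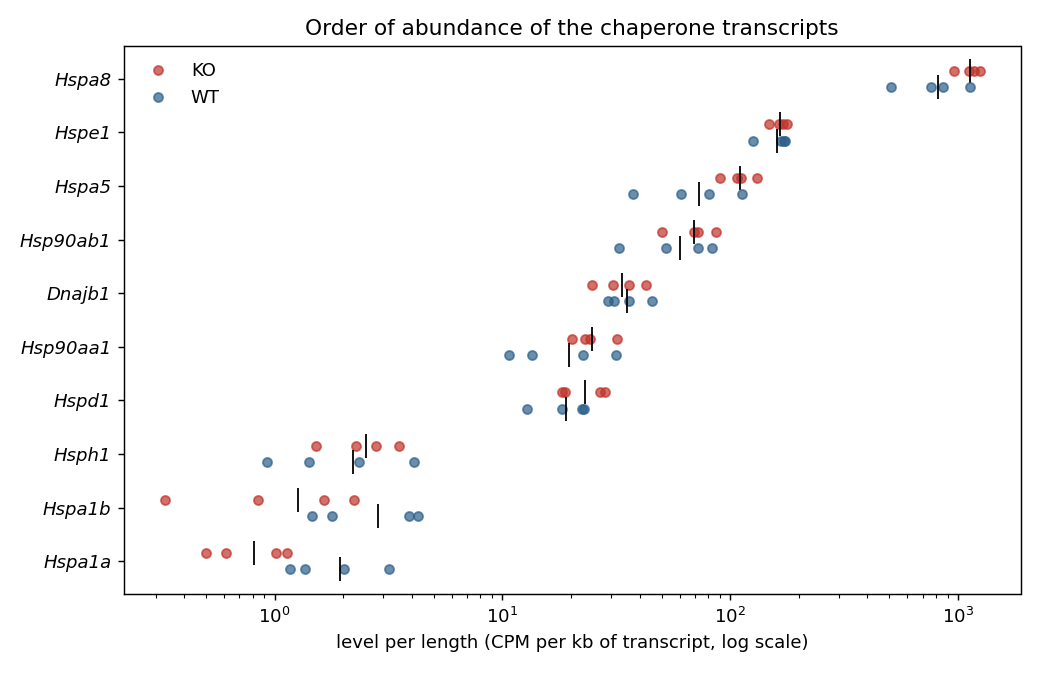
Level of each chaperone transcript per kb of transcript on a log axis, with KO libraries in red above WT libraries in blue and vertical ticks for the group means (n = 4 each). Hspa8 lies at 509 to 1246 CPM per kb, and Hsph1, Hspa1b and Hspa1a lie between 0.329 and 4.27 CPM per kb.

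Reads of near-identical copies limit some of these levels. Of all 100-base windows in the Hspa1a transcript, 47.1% occur unchanged in Hspa1b, and 49.9% of those of Hspa1b occur in Hspa1a, so that the split of reads between the 2 genes is uncertain. With all other annotated genes Hspa1a shares 56.5% of its windows. Hspa8, Hsp90aa1, Hspd1 and Hspe1 share 63.4%, 47.5%, 26.9% and 22.4% of their windows with other annotated genes, mostly pseudogenes. Counts assigned to the pseudogenes that share windows came to 1.97% of those of Hspa8, 1.69% of those of Hsp90aa1 and 5.50% of those of Hspd1. Hsp90ab1, Hsph1, Dnajb1 and Hspa5 share no window. Whether reads that match several genes were counted is not given, so that levels of the genes that share windows may be too low. The annotated starts of Hspd1 and Hspe1 overlap on opposite strands of chromosome 1 and strand use in counting is not given, so that reads from that overlap cannot be told apart. Hspa1a also overlaps an annotated gene on the opposite strand, Gm20481, which had 0 counts, and the same limit applies to reads from that overlap.

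The first comparison asked how the chaperone transcripts differed between KO and WT monocytes over all 4 libraries each. Hspa1a and Hspa1b were on average lower in KO, and 7 of the other 8 genes were on average higher, but none of the 10 passed an adjusted p of 0.05 in the edgeR quasi-likelihood test over all genes. Of all tested genes 1.06% passed, 0.223% higher and 0.838% lower in KO. At an unadjusted p under 0.05 there were 2 of the 10 (Hspa1a and Hspa8), against 20.9% of all genes, and DESeq2 called 1 (Hspa1a), where it called 6.99% of the genes to which it gave an adjusted p, and limma-voom 0. The median log2 change of the 10 was 0.21, against -0.0038 over all tested genes. Hspa1a was the only one of the 10 whose KO and WT libraries did not overlap in CPM, with all 4 KO libraries lower, as held for 6.06% of all genes, while 5.35% had all 4 KO libraries higher. In bulk RNA, fewer cells with a transcript and less of it per cell cannot be told apart, and this holds for each result below.

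**Figure D3:**
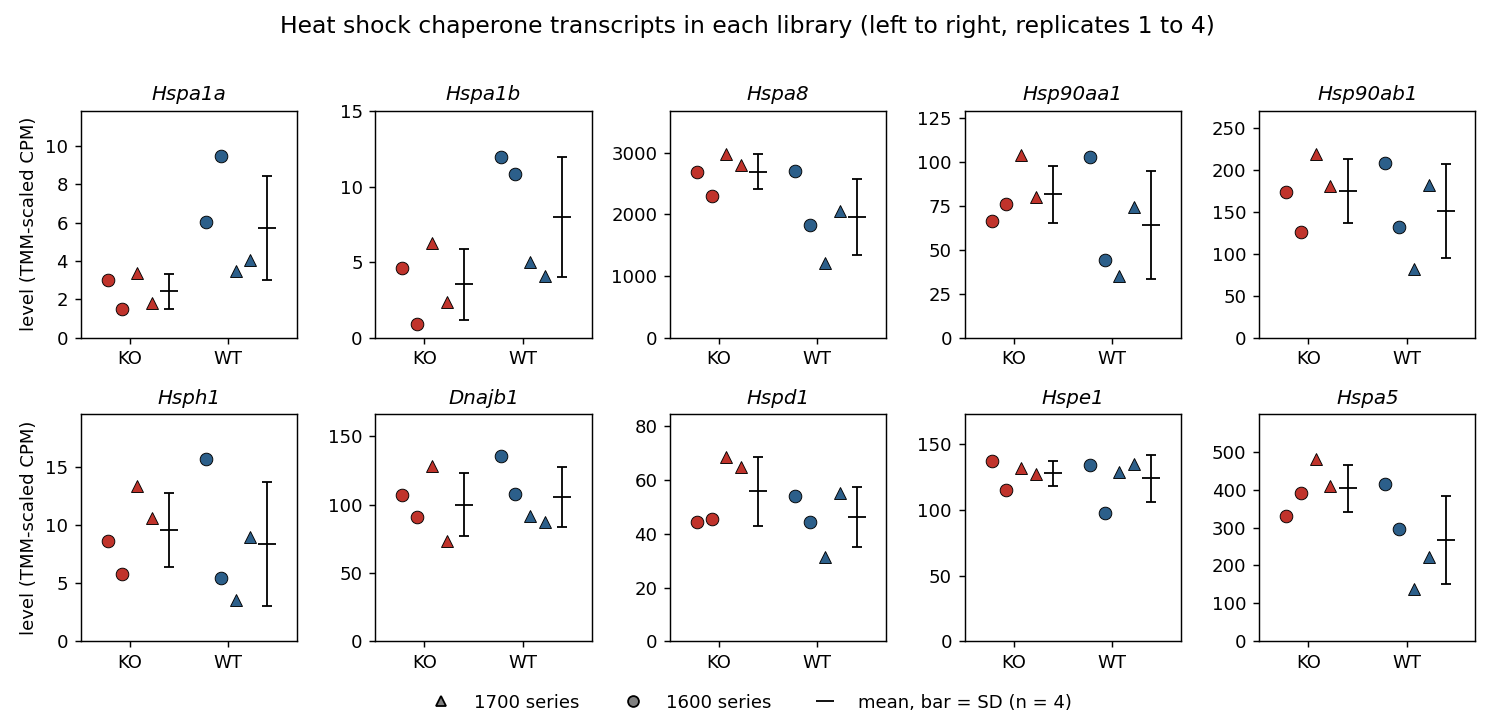
TMM-scaled CPM of each chaperone gene in the 4 KO (red) and 4 WT (blue) libraries, with triangles for the 1700 series, circles for the 1600 series and the mean with its SD beside each group. Hspa1a is lower in each KO library than in each WT library, and the lowest WT library is WT 3 (the left blue triangle) for Hspa8, Hsp90aa1, Hsp90ab1, Hsph1, Hspd1 and Hspa5.

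Hspa1a (ENSMUSG00000091971, GRCm38 chromosome 17, 34969190 to 34972156, minus strand) encodes a stress-inducible cytosolic HSP70. It had 50, 24, 72 and 39 raw counts in KO 1 to 4, against 117, 193, 64 and 65 raw counts in WT 1 to 4. Scaled, these were 2.99, 1.48, 3.36 and 1.81 CPM in KO libraries, against 6.01, 9.47, 3.46 and 4.03 CPM in WT libraries. KO 2 was the lowest and WT 2 the highest, and the gap between the genotypes was narrow, since KO 3 and WT 3 differed by little. The means were 2.41 ± 0.909 CPM in KO and 5.74 ± 2.72 CPM in WT libraries (SD, n = 4 each), a log2 difference of -1.25 ± 0.35 (SE, edgeR adjusted p = 0.0860). DESeq2 gave -1.24 ± 0.36 and an adjusted p of 0.0165, which passes the threshold.

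Hspa1b (ENSMUSG00000090877, chromosome 17, 34956436 to 34959238, minus strand), the neighbouring copy with nearly the same product, had 4.61, 0.923, 6.26 and 2.37 CPM in KO 1 to 4, against 12.0, 10.8, 5.03 and 4.10 CPM in WT 1 to 4. KO 2 was again the lowest, WT 1 the highest, and the genotypes overlapped because KO 1 and KO 3 reached the level of WT 3 and WT 4. Its log2 change was -1.17 ± 0.57 (SE, edgeR adjusted p = 0.281). Summing the counts of both copies removes the uncertain split between them, but does not restore shared reads that may have been left uncounted. The sum was 7.61, 2.40, 9.62 and 4.18 CPM in KO libraries, against 18.0, 20.3, 8.48 and 8.13 CPM in WT libraries. The sum overlapped between genotypes through KO 3, and its log2 change was -1.20 ± 0.47 (SE, edgeR adjusted p = 0.191). Hspa1b held 38.5% to 65.0% of the pair's counts in KO libraries and 50.4% to 66.6% in WT libraries.

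Within the 1700 series the log2 changes of the pair were -0.53 ± 0.41 for Hspa1a (SE, edgeR adjusted p = 0.461) and -0.08 ± 0.67 for Hspa1b (SE, edgeR adjusted p = 0.955). In the 1600 series Hspa1a was lower in KO, with a change of -1.79 ± 0.41 on the log2 scale (SE, edgeR adjusted p = 0.0496), and Hspa1b had -2.04 ± 0.68 (SE, edgeR adjusted p = 0.168). Without KO 1 the Hspa1b value was -3.62 and passed (edgeR adjusted p = 0.0222), and without KO 2 it was -1.30 (edgeR adjusted p = 0.501). Hspa1a was thus the only 1 of the 10 genes called in that series, where 1.85% of all genes were called, 1.14% higher and 0.713% lower. The sum of both copies differed by -1.93 ± 0.53 (SE, edgeR adjusted p = 0.107), which does not pass. No filter on low counts gave 973 calls in that series and the replicate number as a block 420, against 208 in the main test. The Hspa1a call lay at the threshold. It was kept with DESeq2 (adjusted p = 0.00394, which called 5.93% of genes with an adjusted p), with RLE size factors and with no filter on low counts (edgeR adjusted p 0.0485 and 2.8e-05), and with the replicate number as a block (edgeR adjusted p = 0.0397). With limma-voom its adjusted p was 0.0511, and leaving out WT 1, WT 2 or KO 2 gave log2 changes of -2.08, -1.42 and -1.37 with edgeR adjusted p of 0.0853, 0.188 and 0.458. It was also lost on leaving out any 1 of WT 3, WT 4, KO 3 and KO 4 (edgeR adjusted p 0.0512 to 0.0559), and kept without KO 1 (log2 change -2.38, edgeR adjusted p = 0.0455).

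The difference between the series in the genotype effect, 1700 minus 1600, was 1.26 ± 0.57 for Hspa1a (SE, edgeR adjusted p = 0.308) and 1.95 ± 0.95 for Hspa1b (SE, edgeR adjusted p = 0.375), so that a difference between the series was not shown.

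Levels by GC content of the transcript were also set beside the genotypes, without a test. Hspa1a and Hspa1b transcripts lie at the 94.7 and 92.2 percentile of GC content among tested genes. The 10% of genes with the highest GC content had median log2 deviations of 0.09, -0.28, -0.34 and -0.24 from the other genes in KO 1 to 4, against 0.15, 0.23, 0.34 and 0.08 in WT 1 to 4. All but KO 1 were negative in KO and all were positive in WT libraries, and the genotypes overlapped because KO 1 lay above WT 4. KO 3 had the lowest deviation and the highest Hspa1a of the KO libraries. WT 3 had the highest deviation and the lowest Hspa1a of the WT libraries. The part of GC content in the Hspa1a result was not tested. With per-library offsets for length and GC content, the Hspa1a change was -0.90 ± 0.31 over all libraries (SE, edgeR adjusted p = 0.180) and -1.47 ± 0.37 within the 1600 series (SE, edgeR adjusted p = 0.0910), so that the call was lost.

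Immediate-early genes, a group of rapidly induced transcription factors and feedback regulators such as Junb, Jund and Klf4, were negative in 17 of 19 tested members, with a median log2 change of -0.43. Within the 1600 series 16 of 19 were negative and 1, the mRNA decay factor gene Zfp36, changed by -1.07 ± 0.22 (SE, edgeR adjusted p = 0.0421). Their summed level was 3278, 1863, 4525 and 2899 CPM in KO 1 to 4, against 5137, 3635, 4748 and 3235 CPM in WT 1 to 4. KO 2, with the lowest Hspa1a, was also the lowest here, but KO 1 and KO 3 lay within the WT range. WT 2, with the highest Hspa1a, lay below WT 1 and WT 3. Markers of nonclassical monocytes, the patrolling subset, were negative in 7 of 7 genes over all libraries, with a median log2 change of -0.37, and none was at 0. They summed to 220, 150, 246 and 235 CPM in KO 1 to 4, against 335, 271, 254 and 248 CPM in WT 1 to 4. The genotypes did not overlap, by a narrow gap between KO 3 and WT 4. All 4 KO libraries were lower for 6.06% of single genes, and the share among sums of genes was not computed. Nr4a1 is both in this list and in that of the immediate-early genes. Within the 1600 series 7 of 7 were negative, with a median of -1.03, and Cx3cr1, the fractalkine receptor gene, had a change of -1.30 ± 0.20 on the log2 scale and was called (SE, edgeR adjusted p = 0.0146). Within the 1700 series 4 of 7 were negative, and Cx3cr1 changed by 0.38 ± 0.19 (SE, edgeR adjusted p = 0.267). The Cx3cr1 difference between the series was 1.68 ± 0.27 and was called (SE, edgeR adjusted p = 0.0369). The part of these genes in the Hspa1a result was not tested, nor was that of the neutrophil genes that were high in KO 1 and KO 2. Without KO 1 and KO 2 the Hspa1a change was -1.15 ± 0.44 (SE, edgeR adjusted p = 0.253).

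Hspa8 (ENSMUSG00000015656, chromosome 9, 40800984 to 40810087, plus strand) is the constitutive HSP70 that folds new proteins and uncoats clathrin vesicles. It had 2686, 2306, 2983 and 2804 CPM in KO 1 to 4, against 2711, 1829, 1218 and 2054 CPM in WT 1 to 4. The KO libraries lay close together, and 3 of 4 WT libraries lay below all of them, with WT 1 inside their range. The log2 change was 0.46 ± 0.20 (SE, edgeR adjusted p = 0.207). Within the 1700 series, where both KO libraries exceeded both WT libraries, it was 0.82 ± 0.25 (SE, edgeR adjusted p = 0.109), and within the 1600 series 0.14 ± 0.25 (SE, edgeR adjusted p = 0.815). DESeq2 called the 1700 difference (0.83 ± 0.24, adjusted p = 0.0152), as it did 7.79% of genes with an adjusted p. With edgeR it passed without WT 4 (1.25 ± 0.22, edgeR adjusted p = 0.0143) and was 0.50 ± 0.22 without WT 3 (SE, edgeR adjusted p = 0.342).

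The ratio of the constitutive to the inducible HSP70 genes did not overlap between the genotypes. Per kb, Hspa8 stood 423, 1165, 370 and 805 times above the sum of Hspa1a and Hspa1b in KO 1 to 4, against 180, 108, 172 and 304 times in WT 1 to 4. All 4 KO ratios exceeded all 4 WT ratios. Among single genes 5.35% had all 4 KO libraries above all 4 WT libraries, and the share among ratios of genes was not computed. This ratio does not depend on the scaling between libraries, it was chosen with the values known, and it was not tested. Its genes differ in GC content, with Hspa8 at the 59.7 percentile of tested genes and Hspa1a and Hspa1b at 94.7 and 92.2. The part of GC content in the ratio was not tested.

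Dnajb1 (ENSMUSG00000005483, chromosome 8, 83608193 to 83612653, plus strand), the heat-inducible J-domain partner of HSP70, had 107, 91.3, 128 and 73.7 CPM in KO 1 to 4, against 135, 108, 92.1 and 87.3 CPM in WT 1 to 4. The genotypes overlapped fully, with a log2 difference of -0.08 ± 0.18 (SE, edgeR adjusted p = 0.835). It was 0.17 ± 0.23 in the 1700 series (SE, edgeR adjusted p = 0.700). In the 1600 series both KO libraries lay below both WT libraries, by little, at -0.29 ± 0.23 (SE, edgeR adjusted p = 0.530).

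Hsph1 (ENSMUSG00000029657, chromosome 5, 149614287 to 149636376, minus strand), an HSP110 protein that releases nucleotide from HSP70, had 8.62, 5.78, 13.3 and 10.6 CPM in KO 1 to 4, against 15.6, 5.40, 3.51 and 8.94 CPM in WT 1 to 4. WT 1 was 4.45 times WT 3, the widest range of the 10 genes within WT, where the median over all genes was 1.57. The log2 change was 0.20 ± 0.44 over all libraries (SE, edgeR adjusted p = 0.830), 0.95 ± 0.58 in the 1700 series (SE, edgeR adjusted p = 0.376) and -0.54 ± 0.58 in the 1600 series (SE, edgeR adjusted p = 0.667). The difference between the series was 1.49 ± 0.82 (SE, edgeR adjusted p = 0.430).

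The cytosolic HSP90 genes, whose products mature kinases and receptors, shared their highest and their lowest library. Hsp90aa1 (ENSMUSG00000021270, chromosome 12, 110690605 to 110702728, minus strand) had 66.2, 76.0, 104 and 79.9 CPM in KO 1 to 4, against 103, 44.1, 35.1 and 74.2 CPM in WT 1 to 4. Hsp90ab1 (ENSMUSG00000023944, chromosome 17, 45567775 to 45573271, minus strand) had 174, 126, 219 and 181 CPM in KO 1 to 4, against 209, 132, 81.7 and 182 CPM in WT 1 to 4. KO 3 was the highest and WT 3 the lowest for both, and WT 1 was nearly as high as KO 3. Their log2 changes were 0.35 ± 0.32 (SE, edgeR adjusted p = 0.569) and 0.21 ± 0.28 (SE, edgeR adjusted p = 0.700). In the 1700 series Hsp90aa1 had 0.75 ± 0.51 (SE, edgeR adjusted p = 0.438) and Hsp90ab1 0.60 ± 0.42 (SE, edgeR adjusted p = 0.451), and in the 1600 series they had -0.05 ± 0.51 and -0.18 ± 0.42 (SE, edgeR adjusted p 0.973 and 0.858). Per kb, Hsp90ab1 stood 2.16 to 3.43 times above Hsp90aa1 in KO libraries and 2.64 to 3.91 times in WT libraries, which overlap.

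The mitochondrial chaperonin Hspd1 (HSP60; ENSMUSG00000025980, chromosome 1, 55077835 to 55088243, minus strand) had 44.2, 45.4, 68.5 and 64.9 CPM in KO 1 to 4, against 54.0, 44.3, 31.2 and 55.0 CPM in WT 1 to 4. The KO libraries split by series, with KO 3 and KO 4 above every WT library and KO 1 and KO 2 inside the WT range. Its log2 change was 0.27 ± 0.20 over all libraries (SE, edgeR adjusted p = 0.452), 0.63 ± 0.23 in the 1700 series (SE, edgeR adjusted p = 0.141) and -0.13 ± 0.23 in the 1600 series (SE, edgeR adjusted p = 0.797). Without WT 4 the 1700 difference was 1.10 ± 0.18 (SE) and passed, with an edgeR adjusted p of 0.0102, and the difference between the series, 0.77 ± 0.33 with all libraries (SE, edgeR adjusted p = 0.280), became 1.23 ± 0.23 (SE, edgeR adjusted p = 0.0215). Without WT 3 the 1700 difference was 0.28 ± 0.17 (SE, edgeR adjusted p = 0.488) and the difference between the series 0.41 ± 0.23 (SE, edgeR adjusted p = 0.444).

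Its partner Hspe1 (HSP10; ENSMUSG00000073676, chromosome 1, 55088132 to 55091307, plus strand), the lid of the same chamber, was the steadiest of the 10 genes. It had 137, 115, 132 and 127 CPM in KO 1 to 4, against 134, 97.6, 129 and 135 CPM in WT 1 to 4, with a log2 difference of 0.04 ± 0.13 (SE, edgeR adjusted p = 0.873). WT 2 was the lowest library, and the genotypes overlapped over all libraries. Its log2 difference was -0.03 ± 0.17 (SE) within the 1700 series and 0.12 ± 0.17 (SE) within the 1600 series. The Hspe1 level per kb was 6.02 to 9.71 times that of Hspd1 in KO libraries and 6.89 to 12.9 times in WT libraries, with the highest ratio in WT 3. The run of heat shock element cores shown above lies in a window of each gene. In the 1700 series Hspd1 was higher in both KO libraries than in both WT libraries, whereas Hspe1 overlapped.

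Hspa5 (BiP; ENSMUSG00000026864, chromosome 2, 34771970 to 34777547, plus strand), the HSP70 of the endoplasmic reticulum and a sensor of its folding load, had 330, 392, 482 and 410 CPM in KO 1 to 4, against 414, 296, 137 and 223 CPM in WT 1 to 4. WT 3 and WT 4 were lower than every other library, and WT 1 lay among the KO libraries. The means were 403 ± 62.5 CPM in KO and 267 ± 117 CPM in WT libraries (SD, n = 4 each), a log2 difference of 0.59 ± 0.29 (SE, edgeR adjusted p = 0.285). Within the 1700 series Hspa5 rose in KO by 1.31 ± 0.24 on the log2 scale (SE, edgeR adjusted p = 0.0395). It was the only 1 of the 10 genes called there, where 1.38% of all genes were called and 0.276% were called higher. In the 1600 series it differed by 0.02 ± 0.24 (SE, edgeR adjusted p = 0.969). The difference between the series was 1.28 ± 0.34 (SE, edgeR adjusted p = 0.113) and did not pass, whereas DESeq2 gave it an adjusted p of 0.00571 and edgeR without WT 4 gave 1.68 ± 0.27 (SE, edgeR adjusted p = 0.0199).

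No filter on low counts gave 1342 calls in the 1700 series and the replicate block 506, against 155 in the main test. The Hspa5 call in the 1700 series was kept with DESeq2 and limma-voom (adjusted p 1.7e-05 and 0.0338), and with RLE size factors, no filter, the stricter filter on low counts and the replicate block (edgeR adjusted p 0.0333, 9.4e-15, 0.0479 and 0.0246). It was lost on leaving out some single libraries. Without WT 3 the change in the 1700 series was 1.00 ± 0.22 (SE, edgeR adjusted p = 0.140), without KO 3 it was 1.19 ± 0.29 (SE, edgeR adjusted p = 0.329) and without KO 4 it was 1.42 ± 0.28 (SE, edgeR adjusted p = 0.164). It was also lost without KO 1 or KO 2 (edgeR adjusted p 0.0556 and 0.0532), which are not in that series but enter the shared estimate of spread, and was kept without WT 1, WT 2 or WT 4 (edgeR adjusted p 0.0309, 0.0302 and 0.00711). With offsets for transcript length and GC it was 1.07 ± 0.20 (SE, edgeR adjusted p = 0.0812). In the same series all 8 classical monocyte markers were positive, with a median log2 change of 0.35, and F13a1, the gene of coagulation factor XIII A chain, was called with 1.46 ± 0.26 (SE, edgeR adjusted p = 0.0395). F13a1 was lowest in WT 3 too, at 165 CPM, against 270 to 655 CPM in the other libraries. The part of these markers in the Hspa5 result was not tested.

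Set side by side, the 10 genes gave different medians in the 2 series. In the 1700 series the median log2 change was 0.62 with 7 of 10 positive, against -0.01 over all genes, and in the 1600 series it was -0.16 with 3 of 10 positive, against -0.04 over all genes. Hspa8, Hsp90aa1, Hsph1, Hspd1 and Hspa5 had both KO libraries above both WT libraries in the 1700 series, as held for 27.3% of all genes, and Hspa1a had both below, as held for 28.3%. In the 1600 series Hspa1a, Hspa1b and Dnajb1 had both KO libraries below both WT libraries, as held for 26.7% of all genes, and none had both above, as held for 25.6%. The difference between the series, 1700 minus 1600, was positive for 9 of 10 genes, all except Hspe1, with a median of 0.79, against 0.01 over all genes. None of these 10 differences passed with edgeR, where 0.784% of all genes did, and 3 had an unadjusted p under 0.05, against 16.1% of all genes. With DESeq2, 1 of them, Hspa5, passed, where 7.01% of genes with an adjusted p did. Between the 1700 and 1600 libraries themselves, with genotype in the fit, 0 of 10 genes passed with edgeR (adjusted p at least 0.975, and 0 at an unadjusted p under 0.05), as did 0% of all genes. There 583 genes had an unadjusted p under 0.05, and DESeq2 called 35 genes (0.312%) and limma-voom 0.

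**Figure D4:**
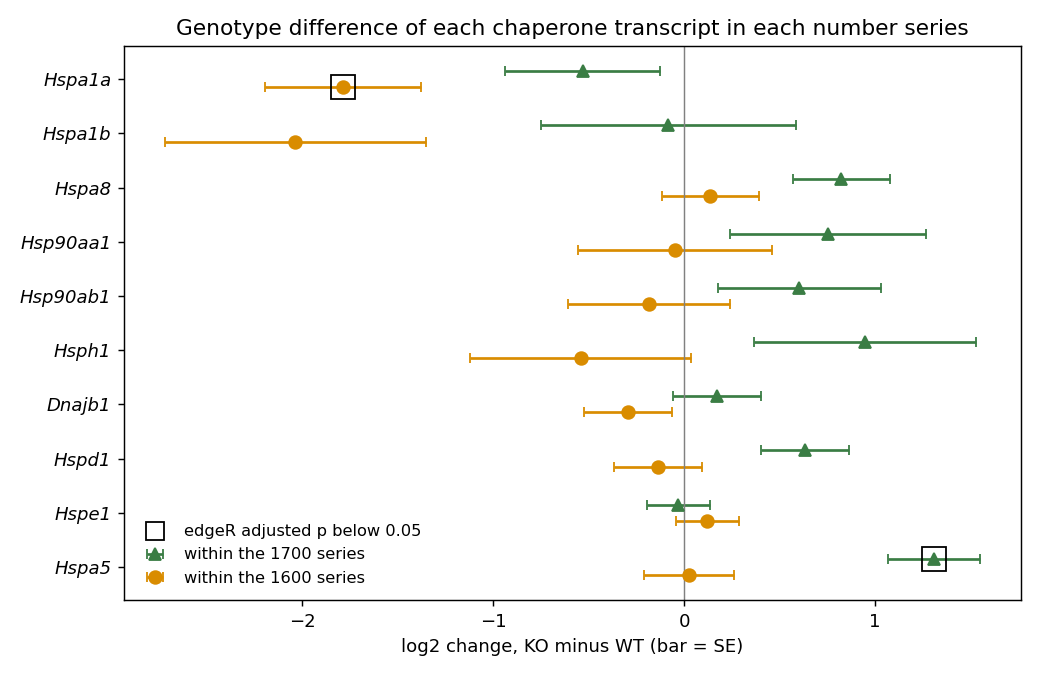
Log2 change of each chaperone gene, KO minus WT, within the 1700 series (green triangles) and the 1600 series (orange circles), with SE bars and a square around each value with an edgeR adjusted p below 0.05. Only Hspa5 in the 1700 series (1.31) and Hspa1a in the 1600 series (-1.79) carry a square, and 9 of 10 genes lie further to the right in the 1700 series.

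A few libraries held most of the extremes. WT 3 was the lowest of the 8 libraries for 6 of the 10 genes, Hspa8, Hsp90aa1, Hsp90ab1, Hsph1, Hspd1 and Hspa5, while it was the lowest for 23.6% of all genes. KO 3 was the highest for 5 of them, Hspa8, Hsp90aa1, Hsp90ab1, Hspd1 and Hspa5, against 10.4% of all genes. Both are 1700 libraries. WT 1 was the highest for Hspa1b, Hsph1 and Dnajb1, against 10.3% of all genes, and KO 2 the lowest for Hspa1a and Hspa1b, against 15.7% of all genes. The 10 genes together took 0.292% to 0.420% of all counts in KO libraries and 0.169% to 0.402% in WT libraries, with the lowest share in WT 3.

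Other chaperone genes were read from lists by family, 130 distinct genes of which 114 were tested. Over all libraries 78 of the 114 were positive, 68.4% against 49.6% of all tested genes, with a median log2 change of 0.13, and 1 was called, where 1.06% of all genes were. Within the 1700 series 74 were positive, 64.9% against 49.3% of all tested genes, with a median of 0.21, and 3 were called, where 1.38% of all genes were. Within the 1600 series 59 were positive, 51.8% against 46.6% of all tested genes, with a median of 0.02, and 1 was called, where 1.85% of all genes were. The difference between the series had a median of 0.24, with 73 of 114 positive, 64.0% against 50.8% of all tested genes.

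Dnajc9, a J-domain protein that also acts as a histone co-chaperone, was called higher in KO with edgeR. It had 45.8, 69.6, 40.2 and 31.1 CPM in KO 1 to 4, against 22.0, 26.3, 17.7 and 23.6 CPM in WT 1 to 4, with no overlap and a log2 difference of 1.06 ± 0.22 (SE, edgeR adjusted p = 0.0453). Within the 1600 series it rose by 1.26 ± 0.24 (SE, edgeR adjusted p = 0.0337). The 16 G2 and mitosis genes summed to 413, 745, 393 and 125 CPM in KO 1 to 4, against 40.2, 189, 55.4 and 38.5 CPM in WT 1 to 4, and both they and Dnajc9 were highest in KO 2. In that list 14 of 14 tested genes were positive, with 1 call, Kif11 (3.33 ± 0.65, SE, edgeR adjusted p = 0.0432), and its part in the Dnajc9 result was not tested. In KO minus WT, 0 genes were called higher with limma-voom, the stricter filter or the length and GC offsets. The same held without KO 1 and KO 2, and on leaving out any 1 of WT 1, WT 3, WT 4, KO 2 and KO 3. The Dnajc9 and Kif11 calls over all libraries were thus lost in these settings. 

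In the 1700 series 1 HSP90 co-chaperone gene and 2 genes of the endoplasmic reticulum were called higher in KO with edgeR, each from 2 libraries per genotype. Stip1 (HOP), which links HSP70 to HSP90, had 45.0 and 36.4 CPM in KO 3 and KO 4, against 11.4 and 19.8 CPM in WT 3 and WT 4, a log2 difference of 1.39 ± 0.27 (SE, edgeR adjusted p = 0.0395). Calr, a lectin chaperone of glycoproteins, had 276 and 252 CPM in KO 3 and KO 4, against 120 and 162 CPM in WT 3 and WT 4, a log2 difference of 0.90 ± 0.15 (SE, edgeR adjusted p = 0.0334). Pdia4, a disulfide isomerase, had 99.8 and 102 CPM in KO 3 and KO 4, against 51.2 and 62.8 CPM in WT 3 and WT 4, a log2 difference of 0.82 ± 0.17 (SE, edgeR adjusted p = 0.0395). All 3 were lowest in WT 3 of the 8 libraries, as were Hspa8, Hspd1 and Hspa5. In the 1600 series Calr differed by 0.14 ± 0.15 (SE, edgeR adjusted p = 0.670). Stip1 in WT 1, a 1600 library, was 37.7 CPM and exceeded KO 4. With offsets for transcript length and GC, 1 tested gene was called higher in KO in the 1700 series. At most 1 of the 3 calls was therefore kept with these offsets.

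By family, the other HSP90 genes and co-chaperones (17 of 17 tested) had medians of 0.21 over all libraries, 0.40 in the 1700 series and 0.02 in the 1600 series. In the same order the other heat-induced HSF1 targets (14 of 16 tested) had 0.21, 0.44 and -0.08. The other HSP70 and HSP110 genes (7 of 10 tested) had 0.10, 0.43 and -0.15, and the other J-domain genes (31 of 33 tested) 0.12, 0.33 and -0.02. The TRiC chaperonin and prefoldin subunits, which fold actin and tubulin, had 0.23, 0.31 and 0.15 over 14 tested genes, with 10 of 14 positive in the 1700 series and 13 of 14 in the 1600 series. Its members with the smallest p were Cct5, at 367 ± 16.3 CPM in KO and 288 ± 34.5 CPM in WT libraries (SD, n = 4 each, edgeR adjusted p = 0.122), and Tcp1, at 196 ± 17.7 and 153 ± 17.7 CPM in the same order of genotypes (edgeR adjusted p = 0.127). The unfolded protein response genes (24 tested) had 0.14, 0.20 and 0.06, and the mitochondrial chaperones and proteases (13 tested) 0.09, 0.08 and -0.07.

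Nucleotide exchange and BAG co-chaperones, of which 0 were called, had medians of -0.15, -0.11 and -0.12 over 10 of 11 tested genes. Among them Bag3, an HSF1 target that guides HSP70 clients to autophagy, had 1.32, 0.984, 2.01 and 1.58 CPM in KO 1 to 4, against 2.11, 3.68, 1.73 and 2.17 CPM in WT 1 to 4. KO 2 was the lowest and WT 2 the highest, as for Hspa1a, and the log2 change was -0.71 ± 0.31 over all libraries (SE, edgeR adjusted p = 0.221) and -1.33 ± 0.41 in the 1600 series (SE, edgeR adjusted p = 0.111). Most other heat-induced HSF1 targets went the other way over all libraries, with 12 of 14 tested genes positive and 2, among them Bag3, negative. Within the 1600 series 9 of these 14 were negative.

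**Figure D5:**
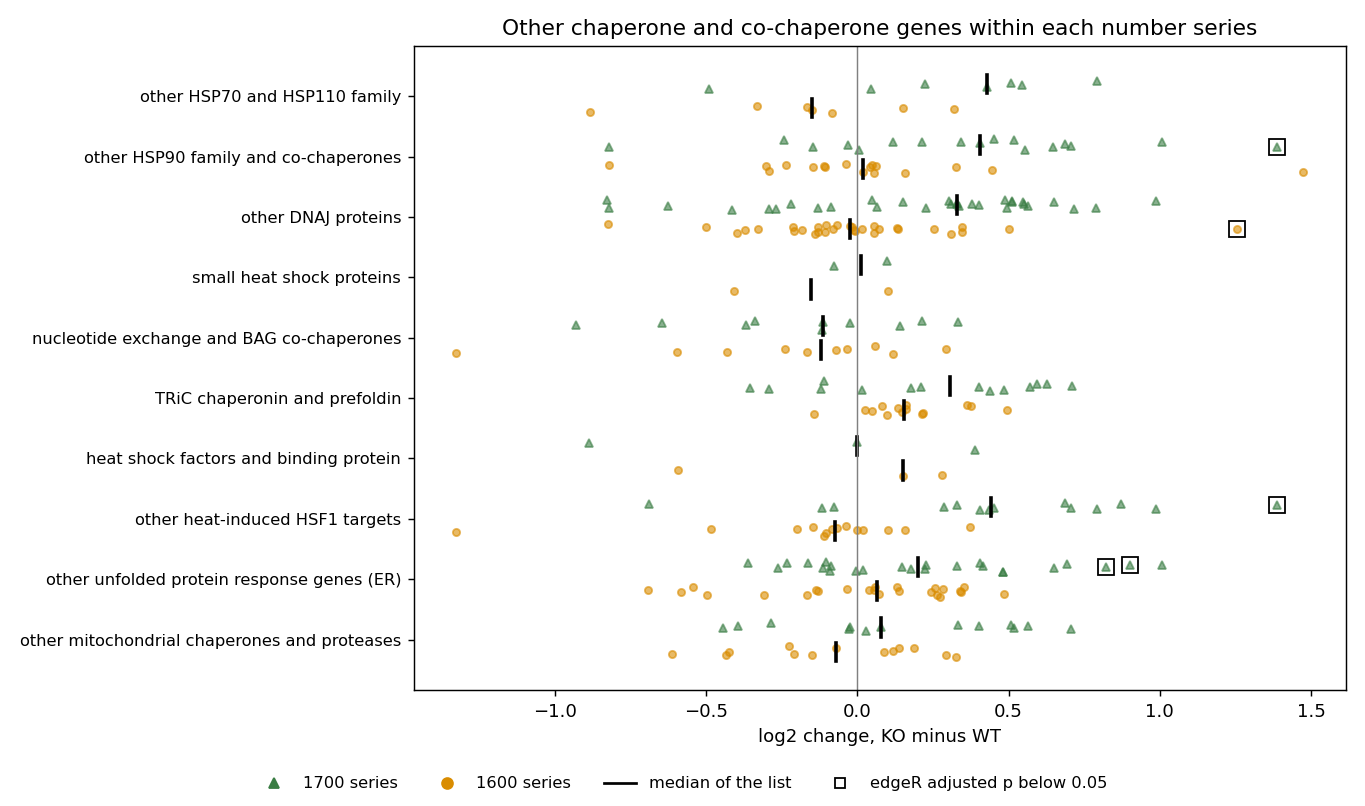
Log2 change, KO minus WT, of the tested genes in 10 lists of other chaperone genes, within the 1700 series (green triangles) and the 1600 series (orange circles), with black bars for list medians and squares for an edgeR adjusted p below 0.05. A gene in 2 lists is drawn in both, so that the 4 called genes Dnajc9, Stip1, Calr and Pdia4 give 5 squares.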

How the data were processed

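Per the labels' protocols, cDNA was primed with oligo-dT and amplified by template switching (SMART-Seq). The authors deposited raw counts, 1 table of genes by 8 libraries. The submitters' processing notes name GRCm38 as the build, HISAT2 2.0.5 as a tool and featureCounts 1.5.0-p3 as another. Settings, annotation release and strand use were not given in the sources used here. Amplified reads carry no molecular identifier, so that limits from a count of 0 cover counting error only. Library pairs of 1 genotype differed by more than sampling noise (chi-square per degree of freedom 16.4 to 77.2), and each was taken as 1 replicate.

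Counts were tested with edgeR 4.0.16 (quasi-likelihood, robust, filterByExpr, TMM) under R 4.3.3, and p-values were adjusted by Benjamini-Hochberg (threshold 0.05) over 11222 genes, which held 99.9% of counts. KO and WT were compared over all libraries, and within and between the number series in 1 fit with 4 groups. Alternatives used DESeq2 1.42.0, limma-voom (limma 3.58.1), RLE size factors, other filters, the series as covariate, offsets for length and GC (mgcv 1.9.3) and single libraries left out. Transcript lengths are those of the longest basic transcript in GENCODE M21 on GRCm38, at hand for 97.8% of tested genes, and promoter windows come from RefSeq. List sums are CPM without TMM factors. The 10 genes were named in every library, and of the other lists the called genes and up to 3 with the smallest p, of which those that carry a comparison are printed. The 10 genes and the lists were chosen with earlier results of these data known.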

Additional observations from a re-analysis of the deposited data

Results flagged for a closer look

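Hspe1 in WT 2, at 97.6 CPM, lay far from the other WT libraries (129 to 135 CPM) for a group of 4. Such a test was made on 20 groups of 4 libraries, the KO and the WT libraries of each of the 10 genes, and chance alone gives about 1 in 20. The level in KO libraries was 115 to 137 CPM.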

How the results depend on the processing

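The counts of called genes depended on the test. For KO minus WT, 119 genes were called, against 784 with DESeq2, 742 with no filter on low counts, 251 with the series as covariate, 107 with RLE size factors, 7 without KO 1 and KO 2, 1 with offsets for length and GC, 0 with limma-voom, 0 with a stricter filter (CPM above 5 in 4 libraries) and 0 (without WT 1, WT 3, KO 2 or KO 3) to 515 (without WT 2) with single libraries left out. Within the 1700 series, 155 became 756 with DESeq2, 1342 with no filter, 4 with offsets and 0 (without KO 3) to 1264 (without WT 4). Within the 1600 series, 208 became 601 with DESeq2, 973 with no filter, 136 with offsets and 9 (without KO 2) to 373 (without WT 3) with single libraries left out. The difference between the series, 88 genes, became 451 with DESeq2, 645 with no filter, 160 with the stricter filter, 5 with offsets and 3 (without KO 4) to 628 (without WT 4). Between series, 0 became 35 with DESeq2, 231 with no filter and 0 to 4 (without WT 2). The cause was not tested. Where 1 library was left in an arm, it was assumed to vary like the other groups.

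With the replicate number as a block the calls were 244 for KO minus WT, 506 within the 1700 series, 420 within the 1600 series and 155 for the difference between the series, and the block could not be fitted with the series term. The replicate numbers do not pair the libraries: deviations of same-numbered KO and WT libraries correlated at -0.05 to 0.09, and of the KO libraries KO 4 alone correlated best with its own number. Under the block Hspa8 was called in the 1700 series (0.87, edgeR adjusted p = 0.0296), Hspa1b in the 1600 series (-2.28, edgeR adjusted p = 0.0411) and Hsp90aa1 changed sign in the 1600 series (0.070).

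For the 10 genes, 679 of the recomputed values kept direction and side of the threshold, 19 passed it anew, 16 lost it and 41 changed sign. No called value changed sign. With offsets Hspe1 was -0.030 for KO minus WT, 0.077 in the 1700 series, -0.15 in the 1600 series and 0.22 for their difference, and Hspa1b 0.17 in the 1700 series. With no filter Hspe1 was 0.0013 in the 1700 series and Hspa5 -0.0032 in the 1600 series. With limma-voom Hsp90aa1 was 0.078 in the 1600 series, and between series Hsp90ab1 was -0.0074 and Hsph1 0.051. With single libraries left out, KO minus WT ranged from -0.055 to 0.70 for Hsph1, -0.22 to 0.063 for Dnajb1 and -0.053 to 0.095 for Hspe1. In the 1700 series it ranged from -0.94 to 0.45 for Hspa1b, -0.28 to 0.51 for Dnajb1 and -0.061 to 0.0062 for Hspe1, and the difference for Hspe1 from -0.40 to 0.061. In the 1600 series it ranged from -0.12 to 0.45 for Hspa8, -0.53 to 0.69 for Hsp90aa1, -0.48 to 0.18 for Hsp90ab1, -1.11 to 0.42 for Hsph1, -0.27 to 0.015 for Hspd1, -0.088 to 0.37 for Hspe1 and -0.20 to 0.29 for Hspa5. Between series the ranges were -0.25 to 0.071 for Hspa8, -0.19 to 0.35 for Hsp90aa1, -0.15 to 0.29 for Hsp90ab1 and -0.29 to 0.52 for Hsph1. Hspa1a and Hspa1b fell below the stricter filter and gave no value there, and with 24 to 193 counts a library for Hspa1a, counting error is a part of its spread.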

Other observations

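The genes of the heat shock factors and their binding protein did not pass the test in any of the comparisons. Hsf1, the main activator, had 4.91, 3.20, 6.73 and 8.50 CPM in KO 1 to 4, against 4.62, 7.61, 5.13 and 6.52 CPM in WT 1 to 4, with full overlap and a log2 difference of -0.03 ± 0.28 (SE, edgeR adjusted p = 0.969). The Hsf1 difference within the 1700 series was 0.39 ± 0.32 (SE, edgeR adjusted p = 0.492), and within the 1600 series -0.59 ± 0.33 (SE, edgeR adjusted p = 0.348). Hsf2 ranged from 0.467 to 1.80 CPM in KO and from 1.28 to 1.77 CPM in WT libraries. Hsbp1, which encodes a small protein that binds HSF1, was abundant at 362 ± 4.57 CPM in KO and 330 ± 33.5 CPM in WT libraries (SD, n = 4 each, edgeR adjusted p = 0.507). Of 9 small heat shock protein genes, which hold unfolded proteins without ATP, 2 passed the filter on low counts, Hspb6 and Cryab. Cryab had 1.32, 3.32, 1.87 and 1.72 CPM in KO 1 to 4, against 2.06, 2.26, 1.62 and 2.17 CPM in WT 1 to 4, and the whole list summed to 1.68 to 3.69 CPM in KO and 2.16 to 3.62 CPM in WT libraries. Hspb2, Hspb3, Hspb7, Hspb8, Hspa12b, Hsf4 and the collagen chaperone gene Serpinh1, a known HSF1 target, had 0 counts in all 8 libraries.

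Markers of other cells were mostly low. T cell and NK cell lists each summed to under 1.3 CPM in every library, with Ncr1 at 0, and Siglech and Klk1 of the plasmacytoid dendritic cell list were at 0. Erythroid genes summed to 5.84 to 25.0 CPM in KO and 4.14 to 9.84 CPM in WT libraries, B cell genes to 16.0 to 34.1 CPM in KO and 16.3 to 38.1 CPM in WT libraries, and red pulp macrophage genes to 51.8 to 95.6 CPM in KO and 43.0 to 97.1 CPM in WT libraries. Conventional dendritic cell genes summed to 62.3 to 485 CPM in KO and 186 to 424 CPM in WT libraries. Most of that sum was Cd209a, at 69.9, 51.2, 460 and 423 CPM in KO 1 to 4, against 159, 382, 285 and 172 CPM in WT 1 to 4. Flt3 of the same list had 15.8 to 18.0 CPM in KO and 11.7 to 17.8 CPM in WT libraries. Nonclassical monocyte genes summed to 150 to 246 CPM in KO and 248 to 335 CPM in WT libraries. Myeloid progenitor genes summed to 24.2 to 220 CPM in KO and 28.9 to 47.4 CPM in WT libraries, with the highest progenitor sums in KO 1 and KO 2. Their part in the chaperone results was not tested.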
